A study of Mus musculus with 3 samples.

Results

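Proliferating C2C12 myoblasts, called C2C12-PR, are described here from the single array that carried their RNA, 1 of the 3 arrays in the series. C2C12 is a myoblast-like line from the C3H mouse, obtained from the RIKEN Cell Bank. The cells of this array were the parental line, with no transgene, grown in DMEM with 10% fetal bovine serum for 2 days. The study asked how Wnt signaling meets BMP/Smad signaling when myoblasts stop dividing and differentiate, and its arrays of cells in low serum and of a Wnt4-overexpressing subline were not used here. Labelled aRNA was hybridised to a mouse oligonucleotide array and read in 1 colour. The signal given throughout is the net signal, the median of a spot in scanner units minus the mean of the 1750 blank spots, and a probe was called detected when its spot exceeded the blank mean by 2 SD. By this rule 13745 of the 18555 probes with a gene name were detected, or 74.1%. With 1 array there were no biological replicates, so no test between conditions was possible and the only measured spread was that of control spots printed many times on the array.

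Myoblasts are muscle precursors that divide while mitogens are plentiful and, once serum is withdrawn, leave the cell cycle, switch on contractile genes and fuse into myotubes. Myod1 and Myf5 are the transcription factors that set their identity, Myog drives the later differentiation step, and Id proteins hold these factors back in growing cells. Most of the messenger RNA of a dividing cell codes for ribosomes, cytoskeleton, protein folding and energy metabolism, whereas regulators of identity and signaling are usually made from far scarcer transcripts. A probe's brightness depends on its own sequence as well as on its transcript, so the order below is one of probe signals and not of transcript numbers.

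The background read from the blank spots was low and narrow, whereas the local background around bright spots was higher, as given under processing below. The blank spots had a mean of 20.4 scanner units with an SD of 2.95, which put the detection threshold at 26.3 scanner units, a net signal of 5.91. Above it lay 59 of the 1750 blank spots, or 3.37%, and 7 of the 96 negative control spots, or 7.29%. At the threshold, V1rd16, Mageb5 and Calm5 were among the first probes inside, each with a net signal of 6.60, and Hoxa2, Kdr and Il4 were among the first outside, each with 5.60. One scanner unit separated these probes, and 1616 of the detected probes, or 11.8%, had a net signal of 10 or less. Detection varied over the slide, from 60.9% to 93.4% of all probes, named or not, among the 48 print blocks, with a median net signal of 13.6 to 50.1 and a blank mean of 18.2 to 25.5 scanner units. The part of these block differences in the detection calls below was not tested.

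**Figure D1:**
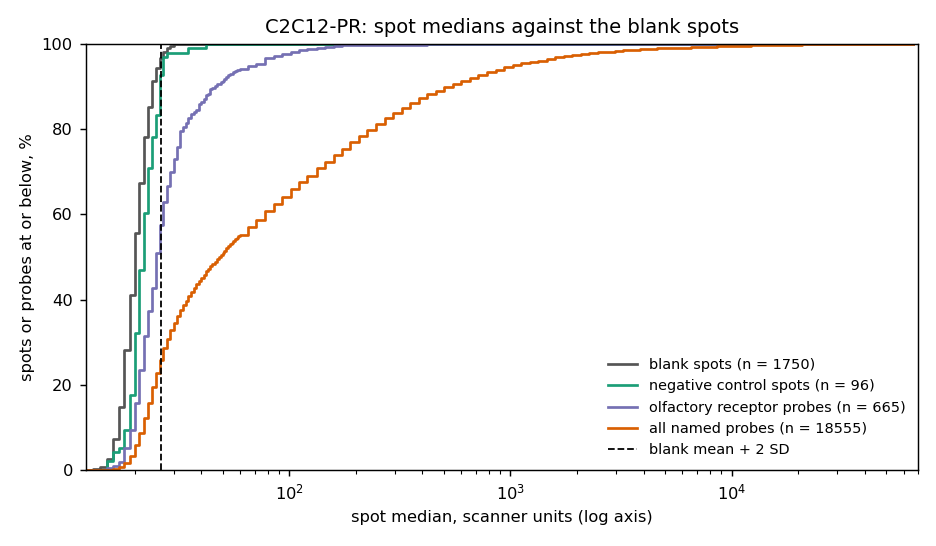
Cumulative percent of blank spots, negative control spots, olfactory receptor probes and all named probes of the C2C12-PR array at or below each spot median in scanner units (log axis), with the detection threshold of 26.3 scanner units dashed. The blank spots end at 35 scanner units, and the curve of the olfactory receptors runs between those of the control spots and of all named probes.

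Signal was concentrated in few probes. The brightest 1% of the detected probes, 137 in number, ran from 6747 to 65351 with a median of 11531 and held 36.5% of the summed net signal. The next 9%, 1237 probes, ran from 686 to 6701 and held 37.8%. These tiers together are called the brightest 10% below, 1374 probes or 7.41% of all named probes, and they held 74.3% of the signal. The following 40%, 5498 probes, lay between 67.6 and 685, and the dimmest 50%, 6873 probes, lay between 6.60 and 67.6 and held 3.07%. A total of 314 probes carried the brighter 50% of the signal, the 25 brightest carried 14.3% and the 10 brightest 7.90%. From the dimmest detected probe to the brightest the range was 9898-fold. No named spot had a median at the scanner's maximum, although that of the brightest, Eef1a1, was close to it at 65371 scanner units. Saturation of single pixels within a spot was not tested.

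**Figure D2:**
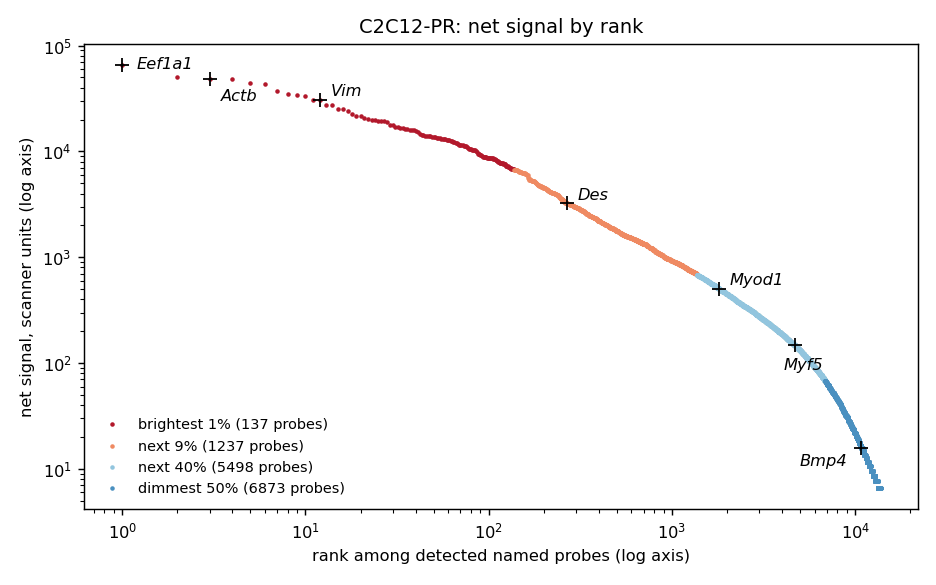
Net signal in scanner units (log axis) against rank among the 13745 detected named probes of C2C12-PR (log axis), with tier borders and selected genes marked. The curve falls from 65351 at Eef1a1 to 67.6 at the border of the dimmest 50%, and Vim and Actb lie in the brightest 1% while Myod1 lies at rank 1804.

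Genes of translation, the cytoskeleton and protein folding filled the top of the order. Eef1a1, the elongation factor that brings aminoacyl-tRNA to the ribosome, was the brightest named probe at 65351. It was followed by Rpl41, a ribosomal protein, at 50184, by Actb, the cytoplasmic beta-actin, at 48056, and by Ppia, the prolyl isomerase cyclophilin A, at 47937. Control spots give the error of such an order. The 24 spots of Positive Control 3, with a mean net signal of 15545, had a coefficient of variation of 10.0%, and those of Positive Control 2 had 9.40% at 16653. Moving a probe by 10.0% of its signal left Eef1a1 between ranks 1 and 2 and spread Rpl41 over ranks 2 to 5 and both Actb and Ppia over ranks 2 to 6, so the neighbours after Eef1a1 were not separated beyond the spread of control spots. Fainter spots were less repeatable, since the 24 spots of Positive Control 1 had a coefficient of variation of 28.5% at a mean net signal of 211.

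Ribosomal proteins were the most frequent among the remaining bright probes. Rps27a, which codes for a ubiquitin fused to a ribosomal protein, had 44117 and Hspa8, the constitutive cytosolic chaperone of the Hsp70 family, had 43035. Rpl26 followed with 34668, Tuba1b, an alpha-tubulin that the array lists as Tuba2, with 34452, and Ubb, a polyubiquitin gene, with 33662. Rps18 had 30888 and Vim, the intermediate filament protein of mesenchymal cells, had 30721 at rank 12, with a range of ranks from 10 to 14. Further ribosomal proteins were Rps4x at 25225, Rpl32 at 23874, Rps3a at 21768 and Rps3 at 19642. Tpt1, a growth-related translationally controlled protein, had 27637, Tmsb4x, which binds actin monomers, had 27416, and Ftl1, the light chain of the iron store ferritin, had 19901. A second Actb probe stood at rank 18 with 22360. The 25 brightest named probes held 19 with a gene symbol, and the other 6 carried an accession in place of one.

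Among the 137 probes of the brightest 1%, 40 fell in the list of cytosolic ribosomal proteins and 9 in that of the nonmuscle actin cytoskeleton. The lists of translation factors, chaperones and glycolysis gave 6 each. The actin list includes the S100 and annexin genes S100a11, S100a10, S100a6 and Anxa2. Tubulins and intermediate filaments gave 4, the extracellular matrix and the respiratory chain 3 each, and sarcomere proteins and the redox and iron list 2 each. One probe each came from surface adhesion, the proteasome list, the histone and HMG list and the imprinted genes, the last being H19, a noncoding RNA with 8015. A further 28 probes had an accession for a name and fell in no list, and 24 symbols fell in no list. The lists were not complete, since a probe named for Rpl3, with 11121, and Ndufa12, with 6752, were among these 24 symbols. The brightest of these 24 were Lgals3, the sugar-binding protein galectin-3, with 19212, S100a4, a calcium-binding protein of motile cells, with 17017, and Hist1h2ab, a histone H2A gene, with 16910. Next came a probe that names several histone H2A genes, with 13651, and Anxa1, a membrane-binding annexin, with 12921. Also among the 24 were Mif, a secreted cytokine, with 11531, Acta2, the smooth muscle actin, with 9407, and Ran, the GTPase of nuclear transport, with 8742. Ribosomal protein, actin, tubulin and histone genes have near-identical copies whose transcripts 1 probe may read together, so these names are uncertain within a family. The 24 symbols were singled out after their values were seen.

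Promoter windows of 13418 of the genes were read from RefSeq's GRCm38.p6 table, each from 250 bases before to 50 bases after the first listed transcription start, and searched for short motifs of classical promoters. The core letters of the TATA box, TATAAA, were searched on the gene's own strand. The CCAAT box was searched on both strands, as CCAAT and in its reverse complement as ATTGG. The GC box was also searched on both strands, as GGGCGG and in its reverse complement as CCGCCC. The last 150 bases before the start are printed 5′ to 3′ for 4 genes on the plus strand, with every match to these motifs in capitals. Ppia (chr11:6415717-6415866) and Vim (chr2:13574161-13574310) are examples from the brightest tier. They are not typical of it, since both hold TATAAA, as did 13 of 79 genes of that tier. Mstn (chr1:53061490-53061639), the secreted inhibitor of muscle growth, and Wnt4 (chr4:137277485-137277634), the ligand that the study overexpressed, were both not detected.
Ppia: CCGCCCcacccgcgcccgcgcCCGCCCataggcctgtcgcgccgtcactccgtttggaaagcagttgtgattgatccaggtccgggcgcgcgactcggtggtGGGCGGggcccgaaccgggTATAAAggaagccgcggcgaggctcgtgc
Vim: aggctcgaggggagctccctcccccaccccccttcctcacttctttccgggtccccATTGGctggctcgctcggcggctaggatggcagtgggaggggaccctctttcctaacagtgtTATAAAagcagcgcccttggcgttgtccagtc
Mstn: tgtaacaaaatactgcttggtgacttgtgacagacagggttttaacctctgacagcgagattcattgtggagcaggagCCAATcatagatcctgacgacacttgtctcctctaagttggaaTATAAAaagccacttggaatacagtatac
Wnt4: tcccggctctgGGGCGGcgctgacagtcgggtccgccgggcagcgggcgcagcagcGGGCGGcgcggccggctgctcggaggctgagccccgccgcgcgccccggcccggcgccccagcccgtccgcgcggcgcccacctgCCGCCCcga

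TATAAA was present in Ppia, where it began 29 bases before the start, in Vim, 32 bases before it, and in the undetected Mstn, 29 bases before it, and was absent from these 150 bases of Wnt4. Over all genes with a window, 7.39% held TATAAA anywhere in it. In the brightest 1% the share was 16.5%, or 13 of 79 genes, and it was 6.40% in the next 9%, 4.01% in the next 40%, 7.64% in the dimmest 50% and 11.4% among genes not detected. Restricted to a position 40 to 20 bases before the start, the shares in the same order were 5.06%, 1.95%, 0.944%, 2.80% and 4.47%, against 2.59% of all genes. TATAAA was thus listed most often at both ends of the order of signals, with only 4 genes behind the first of the positional shares. The GC box letters, in either orientation, were found in 53.2% of the brightest 1%, 69.7% of the next 9%, 67.2% of the next 40%, 51.7% of the dimmest 50% and 32.9% of the genes not detected, against 53.2% of all. The mean GC content of the windows was likewise highest in the middle tiers, at 57.7%, 61.0%, 61.4%, 57.9% and 52.7%. The CCAAT box letters varied less, between 36.7% and 43.1% of the tiers, against 38.2% of all genes. A match is a description of letters, and a gene with several starts was represented by the first.

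**Figure D3:**
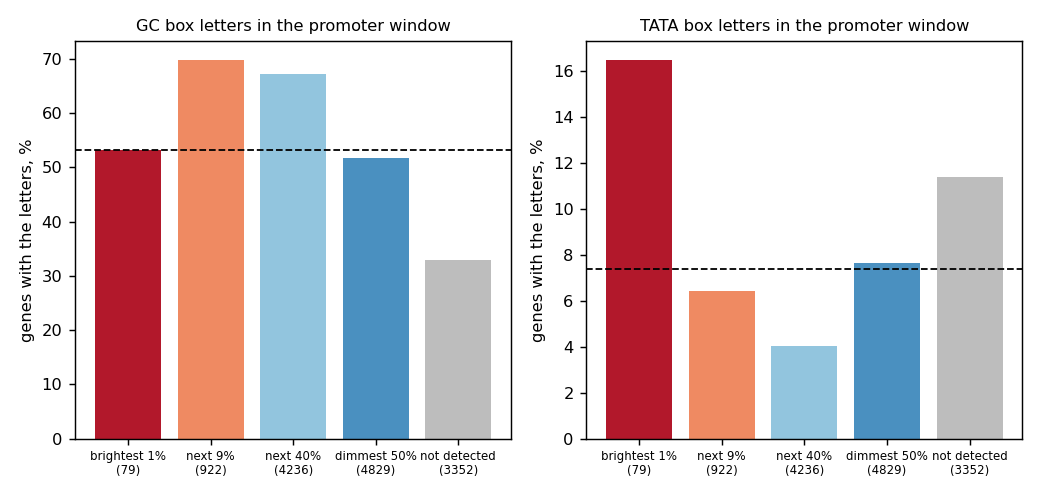
Percent of promoter windows in each signal tier that hold the GC box letters (left) or TATAAA (right), with the number of genes in parentheses and the share over all 13418 genes as a dashed line. TATAAA is lowest in the next 40%, at 4.01%, and the GC box letters are lowest among genes not detected, at 32.9%.

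The machinery of protein synthesis was near the top as a group. Of 62 cytosolic ribosomal protein genes with a probe, 61 were detected, or 98.4% beside 74.1% of all named probes. In the brightest 10% lay 44, or 71.0% beside 7.41%. The list's median net signal was 8704 against 27.6 for all named probes, and the 62 genes held 11.3% of the summed signal. All 35 translation factors were detected, 25 of them, or 71.4%, in the brightest 10%. Pabpc1, the poly(A)-binding protein, had 15805 and Eif4a1, a helicase of initiation, had 9503. The spread inside the ribosomal list was wide. Rpl21 had 16.6, Rpl37 12.6 and Rpl10 9.60, and Rps12 was not detected at 0.602. In the translation list the dimmest were Eif2s1 with 38.6 and Eef1d with 34.6, both above every negative control spot.

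Protein folding and turnover showed a similar level. All 30 chaperones were detected, 24 of them in the brightest 10%, with a median of 2052. Hspb1, a small heat shock protein, had 15692 and Hsp90ab1, the constitutive cytosolic Hsp90, had 11659.6, while Sdf2l1 and Hyou1, both of the endoplasmic reticulum, were the dimmest at 287 and 79.6. Of 34 genes of the proteasome list, which includes ubiquitin genes, 33 were detected, or 97.1%, and 30 lay in the brightest 10%, or 88.2%. The list was led after Ubb by the core subunits Psmb4 with 5402 and Psmb5 with 3584 and the subunit Psma6 with 2793. The dimmest members were Psmb8 with 13.6 and Psmb9, not detected at 1.60, which are the interferon-inducible subunits of the immunoproteasome.

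Energy metabolism was bright in both its cytosolic and mitochondrial arms. All 21 genes of glycolysis and lactate transport were detected, beside 74.1% of all named probes. In the brightest 10% lay 11, or 52.4% beside 7.41%. The list was led by Eno1, an enolase, with 16147, Pgam1, a phosphoglycerate mutase, with 15329.6, Ldha, which makes lactate, with 13904 and Pgk1 with 10809.6. Gapdh, the glycolytic enzyme often used as a reference, had a net signal of 219, between Hk2 with 223 and Pfkm with 204. The dimmest were Aldoc with 79.6 and Pgam2, the muscle form of the mutase, with 19.6. Of 66 respiratory chain and ATP synthase genes, 64 were detected, or 97.0%, and 51 lay in the brightest 10%, or 77.3%. Atp5b had 11439, Atp5g3 had 8639, Atp5d had 6879 and Cox6a1 had 6607. The heart and muscle isoform Cox6a2 was not detected at 1.60, nor was Ndufc1 at 3.60.

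Iron and redox genes were led by both ferritin chains, Ftl1 with 19901 and Fth1 with 19113, followed by Prdx1, a peroxiredoxin, with 6531 and Gstp1, a glutathione transferase, with 4681. Of the 28 genes of this list 27 were detected, or 96.4% beside 74.1% of all named probes. In the brightest 10% lay 15, or 53.6% beside 7.41%. Txn1, thioredoxin, had 30.6, and Gpx1, a glutathione peroxidase, was not detected at 1.60.

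Genes of the nonmuscle cytoskeleton were mostly bright. Of 45 genes of the nonmuscle actin cytoskeleton, 44 were detected, or 97.8% beside 74.1% of all named probes. In the brightest 10% lay 32, or 71.1% beside 7.41%, and the list's median was 2074. After Actb and Tmsb4x came S100a11 with 12423 and Tmsb10, another actin monomer binder, with 10365, whereas Myh10, a nonmuscle myosin heavy chain, had 6.60 and Myl12a was not detected at 4.60. Of 23 tubulin and intermediate filament genes, 20 were detected, or 87.0%, and 12 lay in the brightest 10%, or 52.2%. Tubb5 had 14287 and Tubb2c had 10282, beside Tuba1b and Vim. Des, the intermediate filament protein of muscle, had 3241 at rank 266. Among filament proteins of other cells, Krt8 was not detected at −1.40, Krt18 at 5.60 or Gfap at 1.60, while Nefl, of neurons, had 542.

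Matrix and surface genes were detected broadly, at lower signals. Of 48 extracellular matrix genes, 46 were detected, or 95.8% beside 74.1% of all named probes. In the brightest 10% lay 15, or 31.25% beside 7.41%. Fn1, fibronectin, had 14298, Spp1, the secreted phosphoprotein osteopontin, had 10506, Sparc, a collagen-binding matricellular protein, had 9059.6 and Col3a1, a fibrillar collagen chain, had 6458. Fbn2 was not detected at 5.60 and neither was Lama4 at 4.60. Of 28 integrins and surface adhesion genes, 26 were detected, or 92.9%, and 10 lay in the brightest 10%, or 35.7%. The list was led by the tetraspanins Cd63 with 11393 and Cd81 with 3941, by Bsg, basigin, with 3834, and by Itga7, the laminin-binding integrin of muscle, with 1839.6. Itga1 and Itga2, both collagen-binding integrin chains, were not detected, at 4.60 and 2.60.

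**Figure D4:**
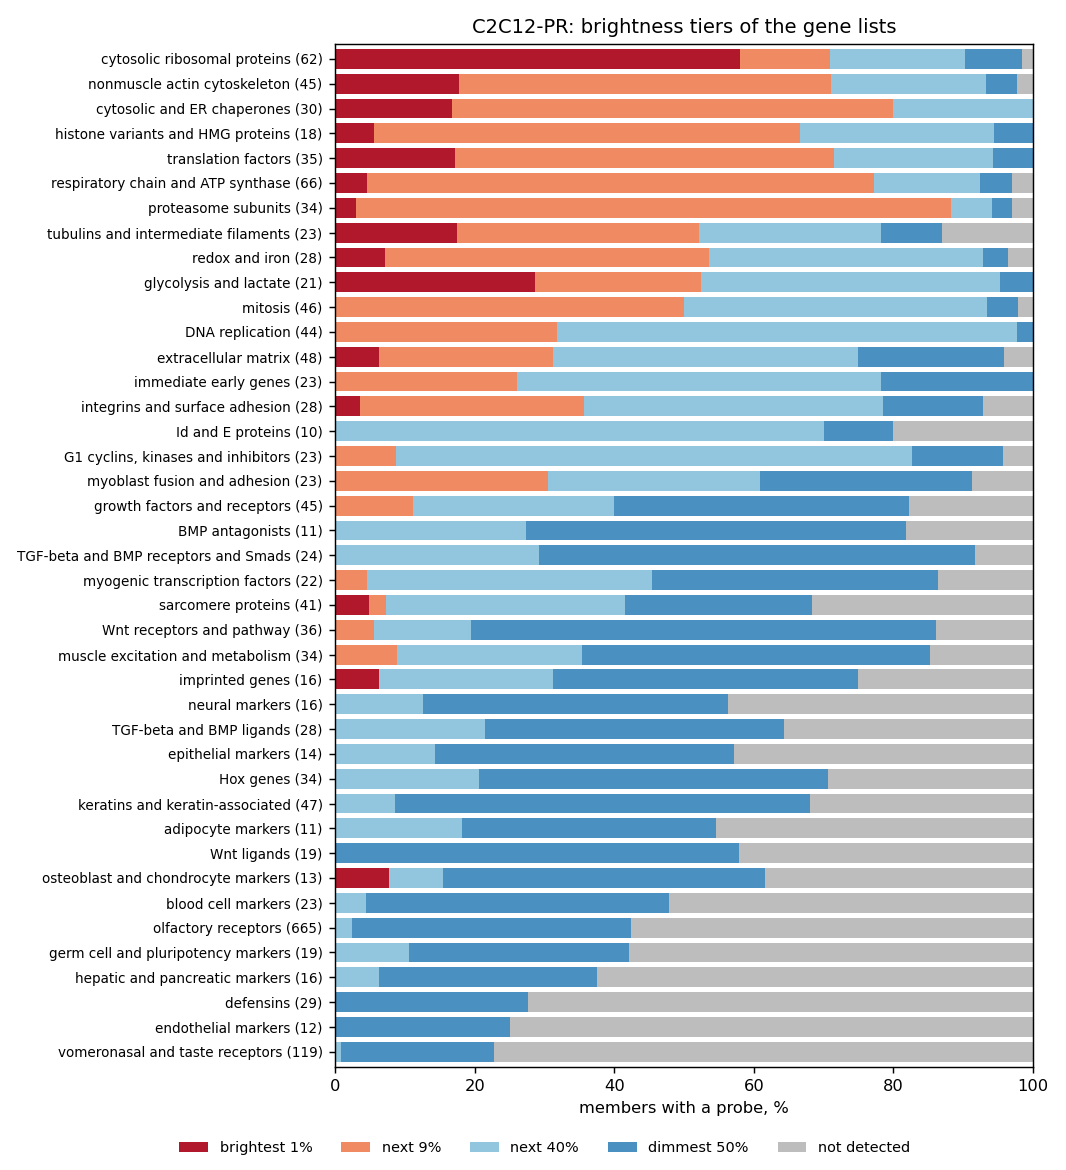
Share of each gene list's probed members in each signal tier of C2C12-PR and below the threshold, in percent of members, with the number of members in parentheses and the lists ordered by median percentile. Ribosomal, translation, chaperone, proteasome and respiratory lists lie mainly in the brightest 10%, whereas olfactory receptors, defensins and endothelial markers lie mainly below the threshold.

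The genes of DNA replication and mitosis were detected almost without exception. All 44 DNA replication genes were detected, beside 74.1% of all named probes. In the brightest 10% lay 14, or 31.8% beside 7.41%, and the list's median was 420.1. Pcna, the sliding clamp of the replication fork, had 5306, Rrm2, the regulated subunit of ribonucleotide reductase, had 2622, Dut, which clears dUTP, had 1543 and Uhrf1, which couples replication to maintenance of DNA methylation, had 1347. The dimmest were Mcm10 with 96.6 and Orc1l, the largest subunit of the origin recognition complex, with 60.6. Of 46 mitosis genes, 45 were detected and 23 lay in the brightest 10%, led by Cdc2a, the mitotic kinase Cdk1, with 2849.6, its partner Cks1b with 2719.6, Ube2c, the ubiquitin-conjugating enzyme of the anaphase-promoting complex, with 2123 and Ccna2, cyclin A2, with 2086. Prc1, of the spindle midzone, had 7.60, and Incenp, of the chromosomal passenger complex, was not detected at 3.60.

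Regulators of the G1 phase lay lower in the order of signals. Of 23 G1 cyclins, kinases and inhibitors, 22 were detected, or 95.7% beside 74.1% of all named probes. In the brightest 10% lay 2, 8.70% of the list beside 7.41% of all named probes. These were Cdk4, the kinase of D-type cyclins, with 2671 and Cdkn1a, the p21 inhibitor, with 715. Trp53, the p53 tumour suppressor, had 632 and Ccnd3, cyclin D3, had 568. Cdkn1c, the p57 inhibitor, had 9.60 and Cdkn2a, the gene of p16 and Arf, was not detected at 3.60. The histone variant and HMG list, whose products package DNA, had all 18 probed genes detected and 12, or 66.7%, in the brightest 10%. Npm1, the nucleolar chaperone nucleophosmin, had 7279 and H3f3b, a replication-independent histone H3.3 gene, had 6511. Hmgn1, with 7.60, was the dimmest of them.

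Marker genes chosen for the label of the cells were read next. All 8 markers chosen for proliferating myoblasts were detected, beside 74.1% of all named probes, at net signals from 148 to 48056 with a median of 1773. None of the 8 is a gene of cell division, so their detection does not tell growing from differentiating myoblasts. Vim and Actb were in the brightest 1%, Des, Itga7 and Cdh15, the muscle cadherin, with 1707, were in the next 9%, and Myod1 with 501, Myf5 with 148 and Msn, the membrane linker moesin, with 649.6 lay in the next 40%. Myod1 stood at rank 1804, between 1681 and 1993 at the spread of the brighter control spots. Of 5 markers of terminal myotubes, Acta1, the skeletal muscle actin, had 319, Mb, myoglobin, had 55.6 and Myh4, a fast myosin heavy chain, had 15.6, whereas Myh1 at 5.60 and Ckm, the muscle creatine kinase, at 4.60 were not detected. Actb and Vim are made by many cell types, and other muscle genes outside these 5 markers, such as Myl3, Ankrd1 and Chrna1, were far brighter, as described below. A fraction of differentiating cells and a low level in all cells cannot be told apart in RNA from a whole culture.

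The transcription factors of myogenesis lay near the middle of the order as a list. Of 22 with a probe, 19 were detected, or 86.4% beside 74.1% of all named probes, and 1 lay in the brightest 10%, or 4.55% beside 7.41%. Their median net signal was 34.6, against 27.6 for all named probes. Below that brightest member, Myod1 had 501, Snai2, a zinc finger repressor of myoblasts, had 277, and Mef2d, a partner of the myogenic factors, had 239. Myf5 had 148 at rank 4674, Myog, the differentiation factor, had 113 at rank 5417, and Myf6, the latest of the family, had 7.60 and was not detected at 3 SD. The range of ranks at the spread of the brighter controls, 4393 to 4974 for Myf5, did not reach Myog, but the coefficient of variation of 28.5% near these signals covers the difference between 148 and 113. Pax3, which specifies muscle precursors in the embryo, and Lbx1, of migrating limb precursors, were not detected, at 1.60 and 0.602.

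Most inhibitors of these factors lay in the upper part of the order. Id1 had 658, Id2 had 549.6 and Id3 had 302, all of them proteins that bind E proteins and keep them from pairing with Myod1, while Id4 was not detected at 2.60. Of the E proteins themselves, Tcf12 had 329 and Tcf3 had 248, and Tcf4 was not detected at 2.60. In all, 8 of 10 genes of this list were detected and 0 lay in the brightest 10%.

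Contractile genes spanned the whole range of the array. Of 41 sarcomere genes, 28 were detected, or 68.3% beside 74.1% of all named probes. In the brightest 10% lay 3, or 7.32% of the list beside 7.41% of all named probes. These were Myl3, a ventricular and slow muscle myosin light chain, with 13145, Ankrd1, a stress-responsive ankyrin repeat protein of striated muscle, with 8622, and Tnnt2, the cardiac troponin T, with 1211. Myl1, the fast skeletal myosin light chain, followed with 577. At the other end Mybpc1, a myosin-binding protein, and Myot, of the Z-disc, were not detected, both at 0.602. Of 34 genes of muscle excitation and metabolism, 29 were detected, or 85.3% beside 74.1% of all named probes. The brightest were Chrna1, the acetylcholine receptor alpha subunit, with 1846 and Atp2a2, a calcium pump of the sarcoplasmic reticulum, with 897. Next came Cacng1, a subunit of the skeletal muscle calcium channel, with 838 and Chrnb1 with 242. Casq1, the calcium store protein calsequestrin, and Dmd, dystrophin, were not detected, both at 0.602.

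Genes used in myoblast fusion and adhesion were detected for 21 of 23, or 91.3% beside 74.1% of all named probes. In the brightest 10% lay 7, or 30.4% beside 7.41%, and the median of the list was 141. The tetraspanins Cd81 and Cd9, with 3941 and 1767, the integrin Itga7 and the cadherin Cdh15 were the brightest. Nphs1, nephrin, at 3.60 and Cav3, the muscle caveolin, at 2.60 were not detected.

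**Figure D5:**
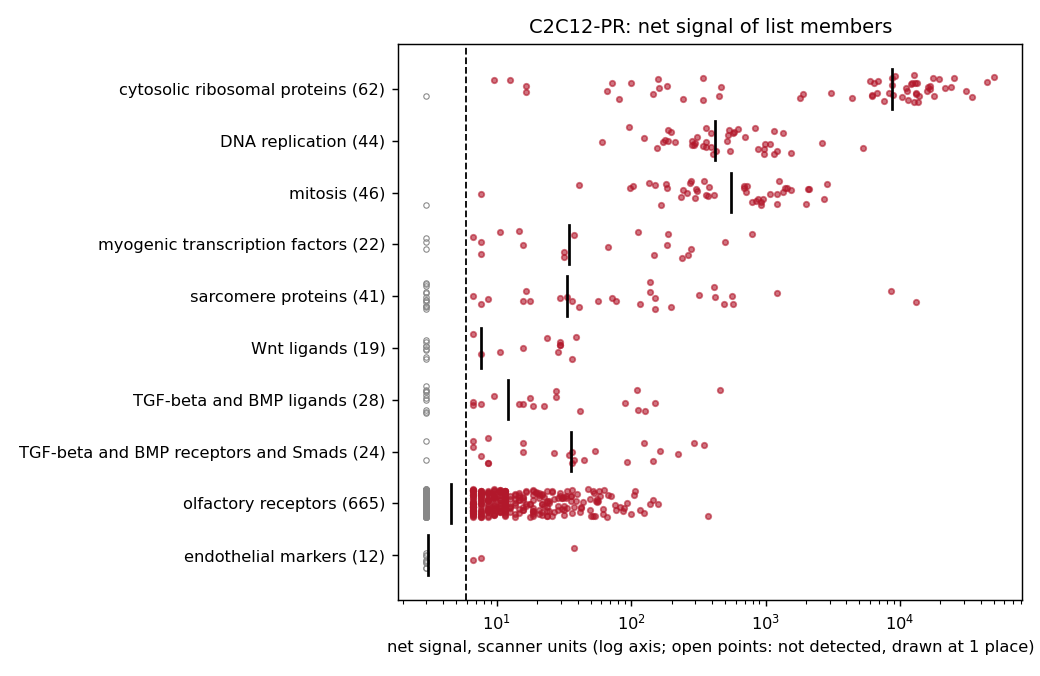
Net signal in scanner units (log axis) of each probed member of selected gene lists in C2C12-PR, 1 point per gene, with the list's median as a bar, the detection threshold of 5.91 dashed, and undetected members as open points drawn at 1 place. DNA replication genes all lie at 60.6 or above, the myogenic factors run down to the background, and no Wnt ligand exceeds 38.6.

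Wnt ligands, the family of the study's question, were at or near the background. Of 19 with a probe, 11 were detected, or 57.9% beside 74.1% of all named probes, all of them in the dimmest 50%, with a median of 7.60. The brightest were Wnt10a with 38.6 and Wnt10b with 36.6, followed by Wnt5b and Wnt6 with 29.6 each. Wnt4 was not detected at 4.60, Wnt3a, the usual activator of beta-catenin signaling, was not detected at 5.60, and Wnt16 at 1.60 and Wnt1 at −0.398 were the dimmest. The brightest negative control spot read 42 scanner units, against 25 for the spot of Wnt4 and 59 for that of Wnt10a, and a transcript level giving less than the threshold was not detectable.

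The receiving side of the Wnt pathway lay close to the named probes as a whole. Of 36 receptors and pathway genes, 31 were detected, or 86.1% beside 74.1%, and 2 lay in the brightest 10%, or 5.56% beside 7.41%, with a median of 27.6, equal to that of all named probes. Ctnnb1, beta-catenin, the mediator of canonical signaling, had 1079 at rank 853, Ryk, a Wnt-binding receptor, had 702, Csnk1a1, a kinase of the beta-catenin destruction complex, had 499 and Axin1, its scaffold, had 316. Axin2, a gene that canonical Wnt signaling induces in many cells, was not detected at −3.40, and neither was the secreted inhibitor Wif1 at −1.40.

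BMP and TGF-beta ligands gave low signals as well. Of 28 with a probe, 18 were detected, or 64.3% beside 74.1% of all named probes, and 0 lay in the brightest 10%, with a median of 12.1 against 27.6 for all named probes. Bmp6 had 458, Inhba, the activin A subunit, had 149.6, Bmp1, a protease that matures procollagen, had 127 and Tgfb3 had 112. Bmp4 had 15.6 at rank 10795 and Bmp2 had 7.60, which is 2 scanner units above the undetected probes nearest the threshold, and Bmp2 was not detected at 3 SD. Mstn, myostatin, listed on the array as Gdf8, was not detected at −2.40, and Gdf3 was not detected at 0.602.

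Their receptors, Smads and antagonists were mostly above the threshold, at low to moderate signals. Of 24 receptors and Smads, 22 were detected, or 91.7% beside 74.1% of all named probes. None of them lay in the brightest 10% and 15 lay in the dimmest 50%. The list's median was 35.6 against 27.6 for all named probes. Ski, a corepressor of Smads, had 346, Smad2, of the activin and TGF-beta branch, had 295, Smad4, the shared partner, had 222 and Tgfbr2 had 165. Smad1 and Smad5, the BMP branch, had 53.6 and 36.6, and Smad3 had 15.6. The receptors Bmpr1b at 0.602 and Acvr1c at −2.40 were not detected. Of 11 BMP antagonists, 9 were detected, or 81.8%, close to the 74.1% of all named probes. Nbl1 had 484, Twsg1 had 468, Fstl3 had 163 and Chrd, chordin, had 66.6, while Nog, noggin, had 44.6 at rank 8002. Fst, follistatin, at 5.60 and Sostdc1 at 4.60 fell below the threshold.

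Other growth factors and receptors were detected for 37 of 45, or 82.2% beside 74.1% of all named probes. In the brightest 10% lay 5, or 11.1% beside 7.41%. Igfbp2, a carrier of insulin-like growth factors, had 4921, the proliferin family members Mrpplf4 and Plf2 had 4223 and 3111, and Igfbp6 had 991. Proliferins resemble one another in sequence, so their probes may read each other's transcripts, which was not tested. Fgfr2 at −0.398 and Fgf2 at −1.40 were not detected.

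What was not detected comprised 4810 named probes, with net signals from −7.40 to 5.60. Olfactory receptors, which odour-sensing neurons use, give a measure of how far signal just above the threshold can be read. Of 665 such probes, 282 were detected, or 42.4% with an exact binomial 95% interval of 38.6% to 46.3%, against 74.1% of all named probes and 7.29% of negative control spots. Their median net signal was 4.60, 266 of the 282 lay in the dimmest 50% and 0 lay in the brightest 10%. The brightest were Olfr151 with 371, Olfr1509 with 160, Olfr860 with 145 and Olfr765 with 138. Receptors with closely similar sequences are not independent, and the interval covers counting error only. Of 119 vomeronasal and taste receptors 27 were detected, or 22.7%, and of 29 defensins, antimicrobial peptides of epithelia, 8 were, up to 17.6 at Defb42. A call of detected at a net signal of this size was thus common among genes of sensory and epithelial tissues.

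The chosen markers of other cell types were mostly undetected or near the threshold, with the germ cell gene Ddx4 the brightest exception at 323. Their counts detected stand beside 74.1% of all named probes. None of 4 endothelial markers was detected, with Pecam1 and Cdh5 at 1.60, Tek at −1.40 and Kdr at 5.60, and none of 3 hepatocyte markers was, with Ttr at 4.60, Apoa1 at 1.60 and Alb, albumin, at −4.40. Of 5 adipocyte markers 2 were detected, Plin and Cfd at 9.60 each, while Fabp4, Lep and Adipoq were not. Of 6 blood markers, Cd14, a receptor for bacterial lipopolysaccharide, had 70.6, Hbb-b1, a beta-globin, had 40.6 and Ptprc, the leukocyte antigen CD45, had 6.60, whereas Cd3e and Emr1 were not detected. Cdh1 with 11.6 and Epcam with 10.6 were the detected ones among 5 epithelial markers. Mbp, a myelin protein, with 43.6 and Snap25, of synapses, with 35.6 were those among 5 neural markers. Of 4 osteoblast and chondrocyte markers with a probe, Sp7 was detected with 11.6, while the wider list for these cells, described next, held Spp1 in the brightest 1%. Of 4 germ cell and pluripotency markers 3 were detected, Ddx4 with 323, Pou5f1 with 67.6 and Dazl with 8.60, while Nanog was not. The part of all these markers in any result above was not tested.

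Wider lists held a few brighter members. The counts detected in these lists stand beside 74.1% of all named probes. Among 23 blood cell genes 11 were detected, with no value above that of Cd14, and among 12 endothelial genes 3 were, with Flt1 at 37.6 the brightest. Among 47 keratins and keratin-associated proteins, 32 were detected, and Krt1-19, the simple keratin Krt19, had 576 and Krt1-13 had 369.6. The neuronal tubulin Tubb3 had 649, the tight junction protein Cldn4 had 273, the lipase Lpl had 249.6 and the adipogenic receptor Pparg had 119. Of 13 osteoblast and chondrocyte genes 8 were detected, led by Spp1, which bone matrix also contains, with 10506 in the brightest 1%, and Sox9, a chondrocyte factor, had 119.6. In the hepatic and pancreatic list Fgb, a fibrinogen chain of liver, was the brightest with 128. Of 19 germ cell and pluripotency genes 8 were detected, led by the germ cell helicase Ddx4 with 323 and Pou5f1 with 67.6.

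Different probes of 1 gene bounded how far a single probe stands for its gene. A total of 186 names had several probes. All were detected for 114 names, none for 16, and the threshold split the other 56. Where all were detected, the brightest probe exceeded the dimmest by a median of 3.02-fold, with 36 names within 2-fold and 25 more than 10-fold apart. The 4 probes of Rps27a read 44117, 19248, 13317 and 1199, and those of Hspa8 read 43035 and 13883. Some genes named above for a bright probe had a much dimmer second one. Tuba1b read 34452 and 1586, Hist1h2ab read 16910 and 16.6, and Cks1b read 2719.6 and 29.6. These examples were chosen after their values were seen, and their bright values rest on 1 of 2 probes. The widest differences in rank were those of Fbxw8, an F-box protein, with 240 and −4.40, of 3200001K10Rik with 286 and −0.398, and of Prosc with 263 and −0.398. Myh8, the perinatal myosin heavy chain, read 421 with 1 probe and 1.60 with another, and it was chosen after its values were seen. A gene listed above as not detected from 1 probe therefore has only that probe's bound.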

How the data were processed

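RNA of proliferating C2C12 cells was amplified to amino-allyl aRNA, coupled to Cy5 and hybridised to a Toray 3D-Gene mouse oligo chip 24K. The labels name the miRNeasy Mini Kit for RNA extraction and the methods of the study name Isogen. The intensity of each spot was deposited by the authors as read by the scanner, with no subtraction or scaling, and only the median and, as an alternative, the mean of each spot and the local background were used. The authors also deposited a table of signals of the same arrays, subtracted and scaled, with a median of 25.0 and 19472 values for this array. It served as an alternative, and among probes detected in both its Spearman correlation with the net signal was 0.997.

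From the intensities, the mean of 1750 blank spots was subtracted from each of 25392 spots, control spots were left out, and a probe printed at 2 spots was averaged. Of 23473 probes, 18555 carried a name, in 18356 distinct names, and 16968 matched RefSeq's gene table of GRCm38.p6 by symbol, accession or synonym. Named genes were the 25 brightest probes, up to 4 brightest and 2 dimmest members of each of 41 lists, the markers, the genes of the study's question, 3 probes on each side of the threshold and 3 names whose probes differed most. Genes outside this rule, such as Gapdh, Rpl21, Nefl, Tcf3, Mef2d and Myh8, were chosen after their values were seen. A few genes chosen by it were left out of the text. A gene entered a list by its brightest probe. Keratinocyte-associated genes were removed from the keratin list after the values were seen. The lists hold 82 genes with no probe here. Members and lists were chosen with earlier results of these data known. Percentiles, counts and shares were computed in Python 3.11.15 with numpy 2.4.6, pandas 2.3.3 and scipy 1.17.1, and the detection step was tested on simulated data. The array gives no read depth, and 1 array per condition limits the precision. A total of 8 alternatives were tried. Protein lengths were not analysed here.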

Additional observations from a re-analysis of the deposited data

Results flagged for a closer look

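Probes without a gene name lay outside the lists and ranks above, and 3114 of these 4918 probes, or 63.3%, exceeded the detection threshold. Of them, 16 were brighter than the 25th named probe and 63 were at least as bright as the dimmest probe of the brightest 1%. The same threshold was exceeded by 3.37% of blank spots and 7.29% of negative control spots. No gene could be given for the unnamed probes here.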

How the results depend on the processing

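Every number rests on 1 array, so the order of signals has no biological error, and whole scanner units leave 24 distinct values among detected probes below a net signal of 30. The local background around spots reached 27978 scanner units and had a Spearman correlation of 0.838 with the spot median across named probes. Among the 25 brightest named probes it ran from 793 to 15385, the latter at Rps18 with a spot median of 30908. The net signal does not subtract it. The number of named probes detected was 12082 with the local background, 12463 and 10964 with thresholds of 3 and 5 SD, 14318 with the median and 2 scaled MAD, 15714 in the deposited table, 13618 with each gene name once and 13745 with print blocks scaled to the array median. With the spot mean it was 4047. There the brightest 1% held 20.6% and the brightest 10% 59.2% of the signal, 6 myogenic transcription factors, 10 sarcomere genes and 1 olfactory receptor were detected, 2 DNA replication and 2 mitosis genes and 0 myogenic factors lay in the brightest 10%, and the median percentile of olfactory receptors was 20.9, against 21.1 in the main setting. With the spot mean, 9 blank spots read over 100, up to 3590.1, and the threshold was 199. With the local background, with 5 SD and with scaled blocks, 0 myogenic factors lay in the brightest 10%, against 1 in the main setting. Olfactory receptors detected numbered 116 with 5 SD, and their median percentile was 24.4 with the local background and 21.0857 with each gene name once. A count was taken as moved when it changed by over 1.5 times, a median percentile when it left the 95% interval given by the order of its members, and a rank when it left its range at 10.0% of signal. By these limits 4 of 328 median percentiles of lists, 48 of 328 counts detected, 30 of 328 counts in the brightest 10% and 22 of 123 ranks moved. Detection was lost for Myf6 and Bmp2 at 3 and 5 SD, for Myf6 with the local background, and for Myf5, Myog, Myf6, Bmp4, Bmp2, Nog, Smad1 and Smad5 with the spot mean. Scaling the blocks moved Myod1 to rank 2296 and Vim to rank 9. No paired analysis was possible because each condition has 1 array.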

Other observations

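Growth factors in serum induce the class of immediate early genes within minutes to hours. The list given this name also holds genes that restrain growth or respond to stress. All 23 of 23 were detected, beside 74.1% of all named probes. In the brightest 10% lay 6, or 26.1% beside 7.41%, and the list's median net signal was 243. Btg1, an antiproliferative gene, had 1505, Klf6, a zinc finger factor, had 1026, Gadd45g, a stress sensor, had 1009.6 and Klf4 had 838, whereas Fosl2 had 16.6 and Egr3 had 6.60. Fos had 17.6 and Jun had 579, both subunits of AP-1 and both named after their values were seen.

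Hox genes, which record position along the body axis, were detected for 24 of 34, or 70.6% beside 74.1% of all named probes, none in the brightest 10%. Hoxc9 had 267, Hoxa11 had 199, Hoxa7 had 183 and Hoxa10 had 99.6, while Hoxa13 was not detected at −2.40. Among 16 imprinted genes 12 were detected, or 75.0%, close to the 74.1% of all named probes. H19 stood at 8015, and Igf2, its neighbour in the genome, had 15.6.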
